A study of Mus musculus with 16 samples.

Results

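The 10 genes described here encode the kinase cascade that runs from DLK and LZK to the JNK kinases, together with the scaffold proteins that hold it, and they were taken by name from 36528 gene identifiers with counts, 31049 of them with a RefSeq symbol. They are Map3k12 (DLK) and Map3k13 (LZK), Map2k4 (MKK4) and Map2k7 (MKK7), Mapk8 (JNK1), Mapk9 (JNK2) and Mapk10 (JNK3), and Mapk8ip1 (JIP1), Mapk8ip2 (JIP2) and Mapk8ip3 (JIP3). All 10 passed the filter on low counts that left 19391 genes for testing. RNA was sequenced from 16 whole mouse retinas taken on day 3 after crush of the optic nerve, in which the axons of the retinal ganglion cells, the output neurons of the eye, are injured. The groups were uncrushed retina with vehicle (MCT; n = 3), crushed retina with vehicle (n = 3), uncrushed retina with the DLK inhibitor GNE-3511 (DLKi; n = 5) and crushed retina with DLKi (n = 5). The inhibitor was dosed at 75 mg/kg, the first time 60 h and the second time 68 h past the injury. The labels give no strain, age or genotype. They state 5 mice per drug but do not tie a retina to an animal, so a p-value here measures the spread between these retinas, and any other retinas of the vehicle mice were not analysed here. Library numbers do run in 8 neighbouring couples, each a crushed and an uncrushed retina of 1 drug. The main tests do not use these couples, alternatives that pair the retinas by them were run, and a result whose call they change is marked.

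In neurons this cascade works as a sensor of axon damage. DLK and LZK are mixed-lineage kinases with leucine zippers; they phosphorylate MKK4 and MKK7, which in turn phosphorylate the JNK kinases on a threonine and a tyrosine of the activation loop, and the active JNKs phosphorylate c-Jun and related transcription factors. The JIP scaffolds bring the tiers of the cascade together, and JIP1 and JIP3 also link it to kinesin motors on the axon. After crush of the optic nerve, DLK signalling is known to be needed for much of the transcriptional response and for the death of retinal ganglion cells. The cascade acts by phosphorylation of proteins that are already present, and RNA levels do not measure its activity.

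The libraries held 22.4 to 44.7 M counted reads. Rhodopsin, the rod photopigment, took 3.08% to 4.29% of the reads, and no marker of the retinal neuron lists was at 0 in any library. Replicate 1 of uncrushed vehicle and replicate 3 of crushed vehicle had the lowest totals, 22.4 and 25.4 M reads, and stood apart from the rest on the second principal component of expression (17.3% of the variance), at -49.4 and -34.3. The next was replicate 5 of uncrushed DLKi at -17.0, and the other 13 libraries lay between -7.68 and 23.1. By library number the 2 libraries with the lowest totals form 1 of the 8 couples named above, so they may not be independent of each other. A fit that leaves out only 1 of them keeps the other retina of that couple. Results below that turn on these libraries are given with and without them. Levels are the authors' nRPKM, RPKM values (reads per kilobase of gene and per fixed number of mapped reads) scaled by a factor per library, so they can be set side by side between genes. A gene was called where its Benjamini-Hochberg adjusted p over all 19391 genes was at most 0.05 in edgeR's quasi-likelihood test, and changes are log2 ratios ± SE from that fit.

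The scaffolds and DLK stood highest in the retina and LZK lowest. Over the 16 libraries Mapk8ip3 averaged 47.7 ± 3.54 nRPKM (SD), Map3k12 40.2 ± 2.57, Mapk8ip2 38.7 ± 4.55, Mapk8ip1 32.4 ± 2.16, Map2k7 25.7 ± 3.20 and Mapk9 23.1 ± 2.30. A step followed that no library crossed. Below it lay Map2k4 at 12.3 ± 0.825 nRPKM, Mapk8 at 12.1 ± 0.506 and Mapk10 at 10.6 ± 2.16, which overlapped one another. The level of Map3k13, 5.09 ± 0.450 nRPKM, was below that of every other cascade gene in all 16 libraries. Neighbours in the order overlapped in range except at the step between Mapk9 and Map2k4 and at that between Mapk10 and Map3k13. Among the JNK genes, Mapk9 was therefore the most abundant transcript in every library, from 18.9 to 27.5 nRPKM, against 6.64 to 13.5 nRPKM for Mapk10, the JNK whose expression is known to be largely neuronal.

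**Figure D1:**
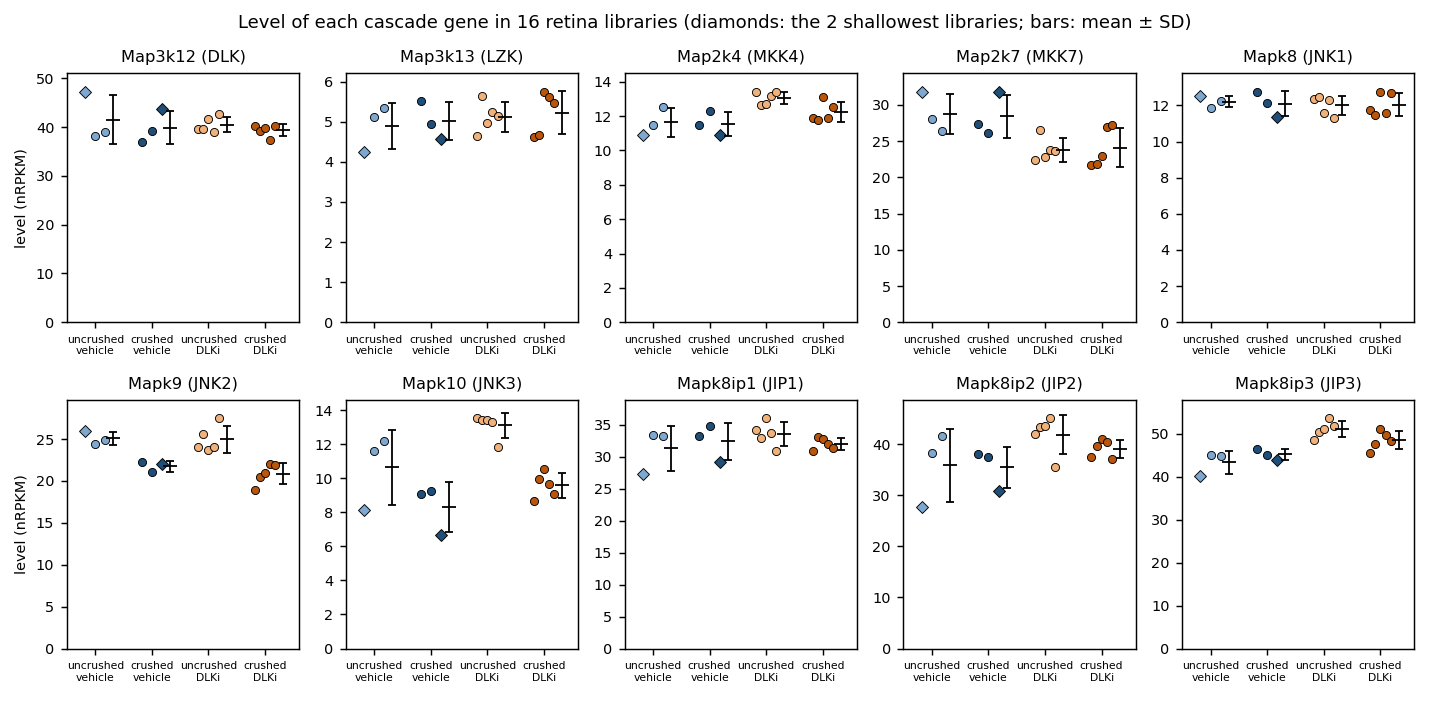
Level of each cascade gene in nRPKM (vertical axis, from 0) in the 4 groups of retinas (horizontal axis), with 1 point per library, a diamond for the 2 libraries with the fewest reads, and mean ± SD beside the points. Mapk9 lies lower in all 8 crushed retinas than in any of the 8 uncrushed ones, Mapk10 lies lower in crushed retina apart from the diamond at 8.12 nRPKM, and the other 8 genes overlap between crushed and uncrushed retina.

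At the head of the cascade, neither kinase gene was called with crush or with the inhibitor. Map3k12, the gene of the drug's target (chromosome 15, 102497647 to 102517004, minus strand, GRCm38), read 47.3, 38.2 and 39.1 nRPKM in uncrushed vehicle retina and 36.9, 39.2 and 43.7 in crushed vehicle retina. With DLKi it read 39.7, 39.6, 41.6, 39.0 and 42.7 nRPKM in uncrushed and 40.2, 39.2, 39.9, 37.3 and 40.2 in crushed retina. All 4 groups overlapped, and the highest value belonged to the library with the fewest reads. Averaged over the 2 drugs the crush effect on Map3k12 was -0.05 ± 0.05, with a 95% interval from -0.16 to 0.06 and adjusted p = 0.763. Map3k13 (chromosome 16, 21824056 to 21933439, plus strand), whose kinase can act beside DLK in injured neurons, read 4.26, 5.11 and 5.34 nRPKM without and 5.52, 4.94 and 4.57 with crush under vehicle. Under DLKi it read 4.64, 5.64, 4.96, 5.25 and 5.13 nRPKM without and 4.61, 4.67, 5.75, 5.61 and 5.48 with crush. These groups overlapped as well, and the averaged crush effect was 0.03 ± 0.06, with an interval from -0.11 to 0.17. Map3k12 made up 89.3% ± 2.11, 88.8% ± 1.76, 88.8% ± 0.881 and 88.3% ± 1.21 of the summed nRPKM of both kinases in the order of the groups above (SD, n = 3, 3, 5 and 5). The difference of that share between crushed and uncrushed retina, -0.51 percentage points, did not pass an exact permutation test of the eye labels within each drug (two-sided p = 0.529, adjusted over 4 such shares 0.533).

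The reads can tell these paralogues apart. Around the codons for aspartate, phenylalanine and glycine of the kinase active site, shown in capitals below, the coding sequences of DLK and LZK differ at 15 of 60 bases, and the longest stretch that their whole coding sequences share is 17 bases, against reads of 50 bases. The windows, 5′ to 3′ in GENCODE M21 transcripts on GRCm38, are chr15:102503811-102503870 (minus strand) and chr16:21905131-21905190 (plus strand), both within 1 coding exon.
Map3k12: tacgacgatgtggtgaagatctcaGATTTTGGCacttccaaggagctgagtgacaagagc
Map3k13: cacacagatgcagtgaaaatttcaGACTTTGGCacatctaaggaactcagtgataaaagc
What the Map3k12 count is open to is its neighbour rather than its paralogue. Exons of Pcbp2, an RNA-binding protein gene on the opposite strand, and of Gm10337 cover 19.3% of its exon length. In its transcript with the longest coding sequence, the only one searched, 31.9% of the 50-base words also occur in theirs. Reads from the overlap cannot be assigned, since the kit leaves strand unmarked. The level of Map3k12, its share of DLK plus LZK and its correlations with other genes carry the same limit. Pcbp2 was also among the 3 genes whose log2 CPM was most like that of Map3k12 over the 16 libraries (Pearson r = 0.92, among 15016 genes that averaged 1 CPM or more), after Slc24a5 (0.94) and Hdac3 (0.93); these are descriptions across libraries that share depth and groups.

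In the middle tier, neither MKK4 nor MKK7 was called with crush. Map2k4 (chromosome 11, 65688244 to 65788359, minus strand), whose kinase prefers the tyrosine of the JNK activation loop, lay between 10.9 and 13.4 nRPKM in the 16 libraries and had an averaged crush effect of -0.05 ± 0.04 (interval -0.14 to 0.04, adjusted p = 0.629). Map2k7 (chromosome 8, 4238740 to 4247897, plus strand), whose kinase prefers the threonine and is specific to JNK, had 0.00 ± 0.07 (interval -0.13 to 0.14, adjusted p = 0.986). MKK4 made up 29.0% ± 3.38 and 29.0% ± 3.29 of the summed nRPKM of both in uncrushed and crushed vehicle retina and 35.5% ± 1.94 and 33.8% ± 2.53 in uncrushed and crushed DLKi retina. The crush difference of the share, -0.83 points, did not pass the exact permutation test (two-sided p = 0.533). Its difference with the drug was not tested as a share; the drug effects on the genes follow below.

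The calls with crush lay in the last tier, where Mapk9 and Mapk10 fell and Mapk8 was not called. Mapk9 (JNK2; chromosome 11, 49846728 to 49886421, plus strand) read 26.0, 24.4 and 24.9 nRPKM in uncrushed vehicle retina and 22.2, 21.0 and 22.0 in crushed vehicle retina. With DLKi it read 24.1, 25.6, 23.6, 24.1 and 27.5 nRPKM in uncrushed and 18.9, 20.4, 20.9, 22.0 and 22.0 in crushed retina. Every crushed retina was below every uncrushed one; of all 19391 genes tested, 0.639% were lower in this way without overlap between the 8 crushed and the 8 uncrushed libraries. Averaged over both drugs Mapk9 fell by 14.8%, a log2 change of -0.23 ± 0.04 with an edgeR adjusted p of 0.00162.

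Mapk10 (JNK3; chromosome 5, 102908547 to 103212604, minus strand) read 8.12, 11.6 and 12.2 nRPKM in uncrushed vehicle retina and 9.07, 9.26 and 6.64 in crushed vehicle retina. With DLKi it read 13.5, 13.4, 13.4, 13.3 and 11.8 nRPKM in uncrushed and 8.63, 9.98, 10.5, 9.68 and 9.07 in crushed retina. The DLKi groups did not overlap, as was so for 3.3% of all genes in this direction, and the vehicle groups overlapped through a single library, replicate 1 of uncrushed vehicle, which is the shallowest. Averaged over both drugs Mapk10 fell by 24.3%, a log2 change of -0.40 ± 0.08 (edgeR adjusted p = 0.00392). These 2 genes were the only members called in the averaged crush effect, both lower, where 3.23% of all genes were called lower and 8.45% in either direction. Both were called in each of 22 alternatives, the 16 that leave out a library included: the change of Mapk9 lay between -0.25 and -0.21 and that of Mapk10 between -0.48 and -0.33.

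Without pairing, Mapk9 and Mapk10 were called within DLKi and not within vehicle, and the difference between the drugs was itself not called. With DLKi, with 5 retinas a group, the changes were -0.26 ± 0.05 for Mapk9 (adjusted p = 0.00567) and -0.45 ± 0.10 for Mapk10 (adjusted p = 0.0118); 2 of 10 members were called, both lower, against 5.33% of all genes in either direction and 2.04% lower. With vehicle, with 3 retinas a group, they were -0.20 ± 0.07 for Mapk9 (adjusted p = 0.170) and -0.35 ± 0.13 for Mapk10 (adjusted p = 0.256). No member was called there by edgeR's quasi-likelihood test or by DESeq2, and 2.63% of all genes were called in edgeR. An unadjusted p under 0.05 was reached by 2 of 10 members and by 10.4% of all genes. Without replicate 1 of uncrushed vehicle Mapk10 was called with vehicle too, at -0.51 and adjusted p = 0.0183, and without both shallowest libraries at -0.38 and adjusted p = 0.0362 (edgeR). With retinas paired by library number, both genes were called with vehicle. The difference of the crush effects between the drugs was -0.05 ± 0.09 for Mapk9 (interval -0.24 to 0.13) and -0.10 ± 0.17 for Mapk10 (interval -0.45 to 0.26). No member was called in that difference by either tool, and 0.0103% of all genes were called. An unadjusted p under 0.05 was reached there by no member and by 1.54% of all genes.

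Mapk8 (JNK1; chromosome 14, 33377898 to 33447353, minus strand) stayed within a narrow band, from 11.3 to 12.8 nRPKM over all 16 libraries. Its 4 groups overlapped, and its averaged crush effect was 0.00 ± 0.04, with an interval from -0.09 to 0.08 and adjusted p = 0.991. That interval does not reach the changes of Mapk9 and Mapk10, though the differences between the genes were tested only through the JNK3 share given below. The windows that follow hold the codons for the threonine, proline and tyrosine that MKK4 and MKK7 act on, in capitals, and are shown because the 3 genes had to be told apart by reads of 50 bases.
Mapk8: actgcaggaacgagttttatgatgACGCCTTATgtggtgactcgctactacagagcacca
Mapk9: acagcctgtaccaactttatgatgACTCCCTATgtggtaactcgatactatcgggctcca
Mapk10: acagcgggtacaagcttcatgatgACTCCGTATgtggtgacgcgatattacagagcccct
They lie at chr14:33392976-33393035 (minus strand), chr11:49872806-49872865 (plus strand) and chr5:102989654-102989713 (minus strand) in GENCODE M21 on GRCm38, each within 1 coding exon. Mapk8 and Mapk9 differ at 15 of these 60 bases, Mapk8 and Mapk10 at 13, and Mapk9 and Mapk10 at 14. The longest stretch shared by the coding sequences of any pair of them is 23 bases, and no exon of another gene overlaps theirs. Coding stretches and 50-base words were checked in 1 transcript per gene, that with the longest coding sequence. None of its words occurs in a transcript of another gene, and the other transcripts were not searched. For Mapk8 the transcript checked has 2587 bases, against 11444 exon bases of the gene.

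**Figure D2:**
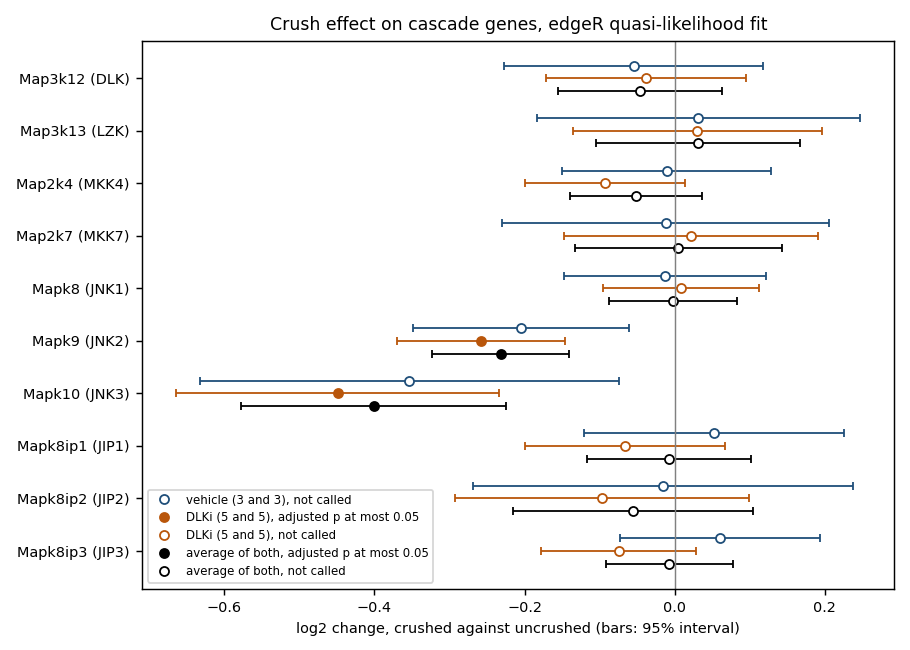
Log2 change of each cascade gene in crushed against uncrushed retina (horizontal axis) with vehicle, with DLKi and averaged over both, with 95% intervals; filled points have an adjusted p of at most 0.05. Mapk9 and Mapk10 lie to the left of 0 in all 3 comparisons, with averages of -0.23 and -0.40, and the intervals of the averages of the other 8 genes include 0.

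Whether the JNK3 share of the JNK pool passed its test turned on the libraries included and on pairing. Under vehicle, JNK3 made up 22.1% ± 4.08 of the summed nRPKM of the 3 JNK genes without crush and 19.7% ± 2.73 with crush (SD, n = 3 each). Under DLKi it made up 26.2% ± 1.67 and 22.5% ± 1.31 (SD, n = 5 each). Crushed retina was 3.03 percentage points lower on average, with an exact permutation p of 0.0548 (two-sided, eye labels permuted within each drug), 0.219 after adjustment over 4 shares. The smallest p that this design allows is 0.000397. In the uncrushed vehicle group the shallowest library had 17.4% and the highest 24.7%. Without that library the difference was -4.21 points (exact permutation test, adjusted p = 0.00952), and without both shallowest libraries -3.44 points (exact permutation test, adjusted p = 0.0159). With all libraries it also passed when retinas were paired by library number. The JNK1 share, not among the 4 shares tested, was higher in crushed retina without overlap under either drug. Under vehicle its highest uncrushed value was 26.8% and its lowest crushed value 28.5% (means 25.5% and 28.7%). Under DLKi these were 24.8% and 26.8% (means 23.97% and 28.4%). The JNK2 share overlapped between crushed and uncrushed retina under each drug.

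**Figure D3:**
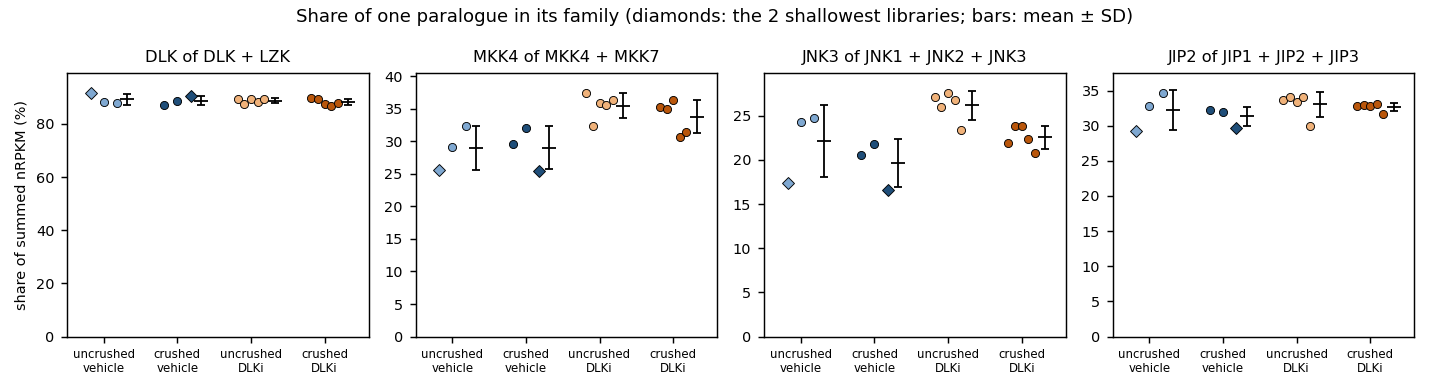
Share of DLK, MKK4, JNK3 and JIP2 in the summed nRPKM of their families in percent (vertical axes, from 0) by group, with 1 point per library, a diamond for the 2 libraries with the fewest reads, and mean ± SD. The JNK3 share of crushed DLKi retina, 20.8% to 23.8%, overlaps that of uncrushed DLKi retina, 23.4% to 27.6%, at its upper end, and the diamonds are the lowest points of the vehicle groups in the MKK4, JNK3 and JIP2 panels.

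Markers of the retinal ganglion cell fell in the same comparison. Of 20 ganglion cell markers, 15 fell with crush in the averaged comparison and none rose, with a median of -0.80 over the list against 0.00 over all genes; the changes were -1.65 ± 0.11 for Rbpms2, -1.47 ± 0.11 for the neurofilament gene Nefh and -1.39 ± 0.11 for the receptor subunit gene Chrna6. No marker of the list was at 0. Their summed level was 1528 to 2103 CPM without and 994.5 to 1354 CPM with crush under vehicle, and 1912 to 2477 CPM without and 1292 to 1498 CPM with crush under DLKi. The shallow library in which Mapk10 was low, replicate 1 of uncrushed vehicle, was lowest of its group in the markers of several neurons. Its mean over the ganglion cell list was 5.12 log2 CPM, against 5.67 and 5.77 in the other 2 libraries of the group, and over the amacrine list 5.56 against 6.21 and 6.33. For bipolar cells it was 6.73 against 6.91 and 6.93, and for horizontal cells 4.25 against 4.62 and 4.54. Its summed pigment epithelium markers were the highest of all 16 libraries, at 815.3 CPM against 272.6 and 128.7 in that group. In whole retina fewer cells of a type and less RNA per cell cannot be told apart. Of 12 markers each for amacrine and bipolar cells, 1 fell in each list: Calb2, which ganglion cells also express, at -0.77 ± 0.10, and Isl1, likewise shared with ganglion cells, at -0.16 ± 0.05, a call lost in 11 of 22 alternatives. Of 6 horizontal cell markers 2 fell, Calb1 at -0.39 ± 0.07 and Septin4 at -0.16 ± 0.05. For photoreceptors, 1 of 12 rod markers rose and 1 fell, and 1 of 10 cone markers rose. Of 10 Mueller glia markers, Vim rose at 0.78 ± 0.10, and Glul and Rlbp1 fell at -0.27 ± 0.06 and -0.19 ± 0.05. Microglia and leukocyte markers rose with crush in 14 of 15 tested genes, from a summed 77.9 to 109.4 CPM in uncrushed to 113.9 to 198.5 CPM in crushed retina; Cd3e, S100a8 and Ly6c2 of this list were at 0 in some libraries. Lens markers fell in 11 of 13, from a summed 11.9 to 790.4 CPM in uncrushed to 9.86 to 41.2 CPM in crushed retina, and 4 of the 13 were at 0 in at least 1 library, Cryba1, Crybb2, Crygs and Lim2. The part of these cells in the changes of Mapk9 and Mapk10 was not tested.

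Across the 16 libraries the genes most like Mapk10 in log2 CPM were Scn2b (Pearson r = 0.99), a sodium channel subunit gene, Ube2ql1 (0.99) and Cacng5 (0.98). Those most like Mapk9 were Dzip1 (0.93), Patj (0.93) and Unc13a (0.92), a gene of synaptic vesicle priming. The genes most like Mapk8 reached only 0.73 (Prkaa1), 0.72 (Mtrr) and 0.71 (Atf2). The r of Mapk9 with Mapk10 was 0.47 over all libraries and -0.33 within groups, after each group's mean was taken out. Mapk10 and Mapk8ip2 instead varied together within groups (r = 0.93), as did Mapk10 and Mapk8ip1 (r = 0.93) and Mapk8ip1 and Mapk8ip2 (r = 0.91). Map3k12 ran opposite to them within groups, at r = -0.89 with Mapk8ip2, -0.88 with Mapk10 and -0.77 with Mapk8ip1. Map3k13 was most like Dgki (0.93), Srgap3 (0.92) and Scaf8 (0.91), Map2k4 most like Tef (0.91), Amph (0.91) and Ywhaz (0.90), and Map2k7 most like Casp2 (0.97), Tub (0.95) and Arid3b (0.95). Among the scaffolds, Mapk8ip1 was most like Slc45a1 (0.96), Golga7b (0.95) and Fam171a2 (0.93), Mapk8ip2 most like the synaptic vesicle gene Sv2a (0.99), Grm4 (0.98) and Kcna6 (0.98), and Mapk8ip3 most like Gtf3c1 (0.96), Exoc8 (0.94) and Tmem127 (0.93). These correlations are descriptions over 16 libraries that share groups, depth and the 2 libraries that stand apart.

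No scaffold gene was called with crush. Mapk8ip1 (chromosome 2, 92383671 to 92401346, minus strand) lay between 27.2 and 36.0 nRPKM and had an averaged crush effect of -0.01 ± 0.05 (interval -0.12 to 0.10) and Mapk8ip3 (chromosome 17, 24897506 to 24936977, minus strand), the kinesin and dynein adaptor that moves with axonal cargo, of -0.01 ± 0.04 (interval -0.09 to 0.08). Mapk8ip2 (chromosome 15, 89453911 to 89462447, plus strand), a scaffold found mainly in brain and other neural tissue, read 27.8, 38.3 and 41.5 nRPKM without and 38.04, 37.5 and 30.9 with crush under vehicle. Under DLKi it read 41.9, 43.3, 43.6, 45.1 and 35.5 nRPKM without and 37.4, 39.6, 41.0, 40.5 and 37.0 with crush. The groups overlapped, and in each of the 4 groups the lowest value came from the library that was lowest of its group on the second principal component. Its averaged crush effect was -0.06 ± 0.08 (interval -0.22 to 0.10), and with DLKi alone -0.10 ± 0.09. Without the 3 libraries lowest on that component the effect with DLKi was -0.15 ± 0.04 and was called (edgeR adjusted p = 0.0477). The JIP2 share of the 3 scaffolds was 31.3% to 33.0% in the means of the 4 groups and its crush difference, -0.63 points, did not pass the test (exact permutation test, two-sided p = 0.523). Without those 3 libraries the difference was -1.37 points (exact permutation test, adjusted p = 0.00265), with no arrangement of the labels further from 0. Those 3 were picked after seeing the data and held the lowest JIP2 shares of their groups, 29.2%, 29.7% and 30.0%. The cut kept replicate 5 of crushed DLKi, the lowest of its group at 31.7%. Neither this test nor the call of Mapk8ip2 without the 3 can therefore decide on a crush effect.

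With the inhibitor, no member was called within crushed or within uncrushed retina. In crushed retina 0.505% of all genes were called and no member by edgeR's quasi-likelihood test or DESeq2. An unadjusted p under 0.05 was reached there by 1 member, Map2k7, and by 13.7% of all genes. In uncrushed retina 0.629% of all genes were called. There 4 members and 17.3% of all genes had an unadjusted p under 0.05. DESeq2 called 1 of these members, Mapk8ip3, at 0.24 ± 0.05 and adjusted p = 0.00173, against 0.24 ± 0.06 and 0.0697 in edgeR. The gene of the target itself, Map3k12, had an inhibitor effect of -0.02 ± 0.07 in crushed (interval -0.17 to 0.13) and -0.04 ± 0.07 in uncrushed retina (interval -0.19 to 0.12). Mapk9 had -0.06 ± 0.06 in crushed and -0.01 ± 0.06 in uncrushed retina, and Mapk10 0.20 ± 0.12 and 0.30 ± 0.12. These comparisons use the same libraries as the crush effects.

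Averaged over both eyes, the inhibitor effect was called for Mapk8ip3, higher, and for Map2k7, lower, in a comparison in which 9.17% of all genes were called, 4.51% higher and 4.66% lower. In uncrushed retina Mapk8ip3 read 40.2, 45.0 and 44.9 nRPKM with vehicle and 48.6, 50.5, 51.2, 53.7 and 51.9 with DLKi. In crushed retina it read 46.6, 45.1 and 43.9 nRPKM with vehicle and 45.6, 47.7, 51.2, 49.6 and 48.4 with DLKi. The drugs did not overlap in uncrushed retina, as was so for 5.24% of all genes in this direction, and overlapped in crushed retina. It rose by 0.17 ± 0.04 on the log2 scale (edgeR adjusted p = 0.0174). In uncrushed retina Map2k7 read 31.8, 28.0 and 26.3 nRPKM with vehicle and 22.3, 26.5, 22.7, 23.8 and 23.6 with DLKi. In crushed retina it read 27.3, 26.1 and 31.8 nRPKM with vehicle and 21.8, 21.8, 22.9, 26.9 and 27.2 with DLKi. The highest values of both vehicle groups were those of the 2 shallowest libraries, and the vehicle and DLKi groups overlapped in each eye. It fell by 0.25 ± 0.07 on the log2 scale (edgeR adjusted p = 0.0239).

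Neither call held without the 2 shallowest libraries, or with the counts of each couple of neighbouring library numbers summed. Map2k7 then changed by -0.17 ± 0.06 (edgeR adjusted p = 0.169) and Mapk8ip3 by 0.13 ± 0.04 (edgeR adjusted p = 0.0868), and over all genes 607 were called in place of 1778. Leaving out crushed vehicle replicate 3 alone also ended both calls, at adjusted p = 0.0862 for Map2k7 and 0.0550 for Mapk8ip3, and leaving out uncrushed vehicle replicate 1 alone ended that of Map2k7, at adjusted p = 0.0697 (edgeR). Map2k4 (0.12 ± 0.04, adjusted p = 0.0725) and Mapk10 (0.25 ± 0.08, adjusted p = 0.0718) missed the threshold in edgeR and passed it in DESeq2 (adjusted p = 0.0365 and 0.0354). Markers of several retinal neurons were called in the same comparison. With the inhibitor 7 of 20 ganglion cell markers were higher, 4 of 12 bipolar markers higher and 1 lower, and 2 of 6 horizontal cell markers higher. For photoreceptors, 1 of 12 rod markers was higher, and 1 of 10 cone markers was higher and 1 lower. No amacrine marker of 12 was called, though all 12 had a positive change, with a median of 0.18. Without the 2 shallowest libraries the counts were 2 higher of 20 ganglion cell, 2 higher and 1 lower of 12 bipolar and 1 higher of 6 horizontal cell markers. Map2k7 has a further limit. Exons of Gm49320, a model on the same strand, cover 35.2% of its exon length. They share 82.4% of the 50-base words of the 1 Map2k7 transcript searched, that with the longest coding sequence. The authors' rule for such reads was not given in the sources used here. Eme2, Mrps34 and Nme3 overlap 20.4% of the exon length of Mapk8ip3. Of the 5554 words of its transcript with the longest coding sequence, 0 occur in a transcript of another gene.

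**Figure D4:**
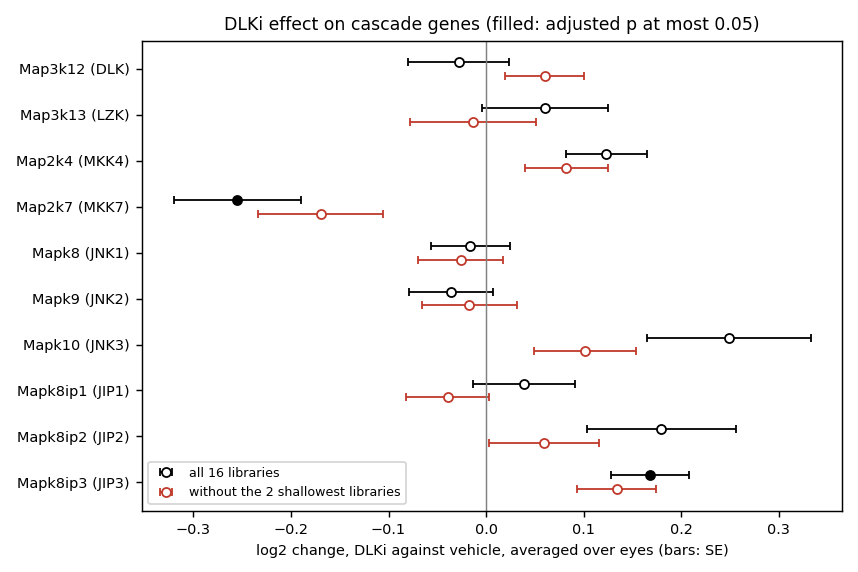
Log2 change of each cascade gene with DLKi against vehicle, averaged over crushed and uncrushed retina (horizontal axis, bars SE), in all 16 libraries (black) and without the 2 libraries with the fewest reads (red); filled points have an adjusted p of at most 0.05. Map2k7 at -0.25 and Mapk8ip3 at 0.17 are filled with all libraries and open without the 2, and Mapk10 moves from 0.25 to 0.10.

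Genes around the cascade were counted in the same way. The lists that follow were drawn up with earlier results of these data known, and their counts support no direction. Over all genes, 8.45% were called with crush in the averaged comparison, 3.23% of them all lower, and the list counts with crush stand beside these shares. Of 25 other upstream kinases of the MAP3K and MAP4K families tested, 4 rose and 1 fell with crush in the averaged comparison. Map3k1, the kinase MEKK1 that also feeds JNK, rose from 6.88 ± 0.319 to 8.95 ± 0.589 nRPKM with vehicle and from 6.54 ± 0.446 to 8.02 ± 0.144 with DLKi (0.34 ± 0.04, edgeR adjusted p = 4.29e-05). Tnik, a MAP4K family kinase, rose by 0.31 ± 0.05 (adjusted p = 5.61e-04) and Taok3 fell by 0.36 ± 0.07 (adjusted p = 0.00285). The median over the 25 was 0.03. The parallel ERK, p38 and ERK5 arms held no called gene among 18 in edgeR's quasi-likelihood test or DESeq2, with a median of -0.02. An unadjusted p under 0.05 was reached by 2 of the 18, against 17.4% of all genes.

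Among 30 genes of DLK regulators and JNK adaptors, 2 rose and 2 fell with crush. Gadd45b and Gadd45a, stress-induced genes whose proteins bind kinases of the cascade, rose by 0.99 ± 0.15 and 0.31 ± 0.06 on the log2 scale, and Kif5a, the neuronal kinesin heavy chain, fell by 0.37 ± 0.08. The fourth was Klc2, a kinesin light chain gene, at -0.20, outside the 3 with the smallest p and named after its value was seen. The 30 include the genes that control DLK protein, such as the ubiquitin ligase gene Mycbp2 and the deubiquitinase gene Usp9x, neither of them called. Of 7 JNK phosphatase genes tested, 2 rose: Dusp8 from 30.6 ± 3.39 to 40.2 ± 2.95 nRPKM with vehicle and from 26.4 ± 1.54 to 32.2 ± 0.903 with DLKi (0.34 ± 0.05, edgeR adjusted p = 1.67e-04), and Dusp16 by 0.48 ± 0.08 (edgeR adjusted p = 6.90e-04). Both encode dual-specificity phosphatases that act on JNK.

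The list of JNK substrates and genes induced after axon injury holds genes included because injury raises them. Its rises with crush are therefore no finding about the cascade. Of its 31 genes, 17 rose and 1 fell with crush, with a median of 0.38, and 0 were called in the difference of crush effects between the drugs. Hrk, a pro-apoptotic BH3-only gene, rose from 0.209 ± 0.0142 to 1.95 ± 0.177 nRPKM with vehicle and from 0.133 ± 0.0102 to 1.49 ± 0.202 with DLKi (3.34 ± 0.09, edgeR adjusted p = 1.67e-13). Ecel1 and Sprr1a, injury-induced genes of regenerating neurons, rose too, Ecel1 from 0.155 ± 0.0479 to 10.1 ± 3.21 nRPKM with vehicle and Sprr1a by 7.23 ± 0.26 on the log2 scale in the averaged comparison. With the inhibitor averaged over both eyes, 7 of the 31 were lower and 1 higher, among them Atf3 at -0.88 ± 0.13 (edgeR adjusted p = 8.92e-04), Jund at -0.47 ± 0.08 (edgeR adjusted p = 0.00181) and Bcl2l11, which encodes the BH3-only protein BIM, at -0.44 ± 0.07 (edgeR adjusted p = 0.00292). Over all genes, 4.66% were called lower and 4.51% higher in that comparison. Without the 2 shallowest libraries 5 of the 31 were lower and none higher. Of the 31 genes called for the inhibitor over all pathway and marker lists together, 1 was called with the counts of neighbouring library numbers summed, Atf3. Dusp8 fell with the inhibitor by 0.27 ± 0.05 (edgeR adjusted p = 0.00440). Of the other upstream kinases, Map4k4, Map3k3 and Map4k2 fell by 0.20, 0.22 and 0.26 in that comparison, and none of the 25 was called without the 2 shallowest libraries. Of the regulators and adaptors, Stub1, a ubiquitin ligase gene, rose with the inhibitor by 0.19 ± 0.05, a call that was also lost without those libraries. None of the 18 genes of the ERK, p38 and ERK5 arms was called in edgeR, and 2 were in DESeq2. An unadjusted p under 0.05 was reached by 5 of these 18, against 27% of all genes.

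**Figure D5:**
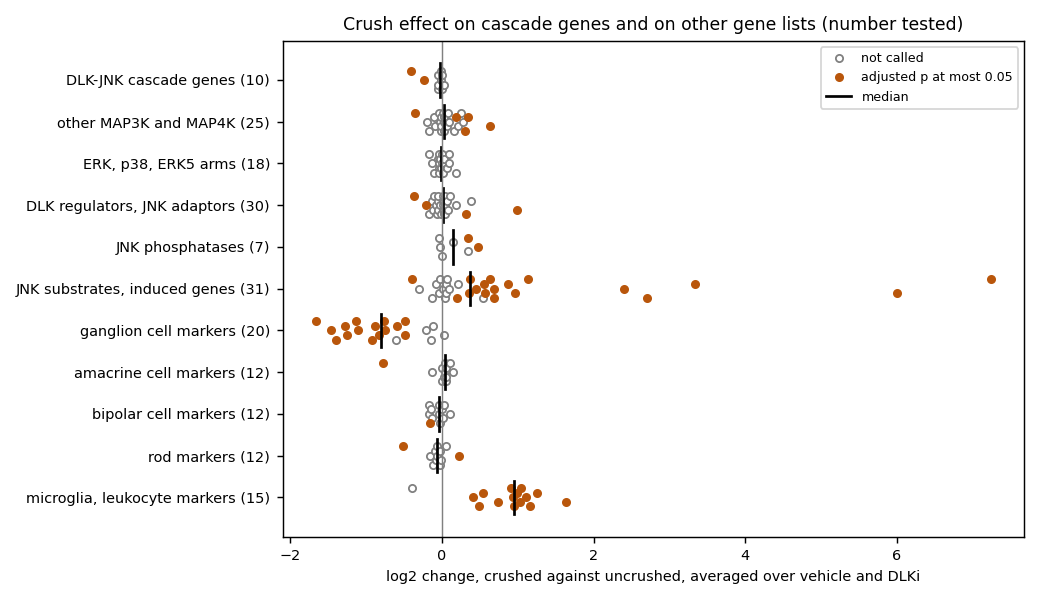
Log2 change with crush averaged over both drugs (horizontal axis) of the cascade genes, of other gene lists of the pathway and of cell type markers, with 1 point per gene tested, filled where the adjusted p is at most 0.05, and a bar at the median. The cascade genes lie between -0.40 and 0.03, most ganglion cell markers lie to the left with a median of -0.80, and the substrates and induced genes reach 7.23.

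The start sites of the cascade genes were searched for the letters bound by c-Jun dimers, after the falls of Mapk9 and Mapk10 were seen. Whether c-Jun acts on any of these genes was not tested. The windows run from 250 bases before to 50 after each start in the RefSeq annotation of GRCm38.p6, with 14 windows for 9 of the 10 genes. TGACTCA, the AP-1 letters, which read as TGAGTCA on the other strand, was found in none of them and in 5.2% of 32851 mouse promoters of the same length, on either strand. TGACGTCA, the cyclic AMP response element letters to which JUN and ATF2 dimers also bind, was found in 1.79% of these 32851 promoters, which leave out 1 chromosome. Among the cascade genes it was found in 1 window, that of the start of Mapk10 at chr5:103211285-103211584 (minus strand), shown with the match in capitals.
Mapk10 promoter: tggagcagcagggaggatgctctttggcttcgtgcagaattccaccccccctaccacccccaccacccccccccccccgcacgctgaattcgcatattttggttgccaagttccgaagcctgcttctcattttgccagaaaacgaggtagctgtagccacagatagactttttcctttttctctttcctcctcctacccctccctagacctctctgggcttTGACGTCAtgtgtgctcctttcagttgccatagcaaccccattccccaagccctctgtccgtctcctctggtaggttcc
The match is a description of the letters in that window. The other window of Mapk10 and that of Mapk9 hold neither motif.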

How the data were processed

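RNA of 16 mouse retinas in 4 groups was measured, each library placed by its labels for eye and drug. Per the labels' protocols, libraries were poly(A), made with the TruSeq kit version 2, and read as single reads of 50 bases. The deposited counts are uniquely aligned reads per gene model, as whole numbers, per the file headers. The authors' deposited nRPKM is an RPKM value scaled by a factor per library; it kept a constant ratio to count between libraries (relative spread 8.57e-14). The aligner was GSNAP and the build GRCm38, per the submitters' processing notes; versions, settings and annotation were not given in the sources used here. Rows without a symbol held 1.10% to 1.22% of the counts.

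The counts of 19391 genes went into edgeR 4.0.16 under R 4.3.3 (TMM, filterByExpr, quasi-likelihood fit and F test over all 16 libraries with a mean per group; 12 residual and 5.27 prior degrees of freedom; median coefficient of biological variation 11.1%). Averaged effects weight both drugs or both eyes equally. DESeq2 1.42.0 was an alternative, as were RLE scaling, no filter, only the 2 groups compared, and leaving out each library or the 2 with the lowest totals; leaving out the 3 lowest on the second principal component, and pairing retinas by neighbouring library numbers, were chosen after seeing the data. Shares were compared with an exact permutation test over 5040 arrangements. The fit was tested on simulated data. No replicates were copies: their counts differed by a chi-square of 6.73 to 42.8 per degree of freedom over genes with at least 20 summed reads.

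The members and the gene lists were chosen with earlier results of these data known. Named are all 10 members, from each other list up to 3 called genes with the smallest p in a comparison described, and for each member the 3 genes with the highest Pearson r of log2 CPM (prior count 2). Protein sequences were not used here.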

Additional observations from a re-analysis of the deposited data

Results flagged for a closer look

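In groups of 5 retinas, 28 sets of values (10 levels and 4 shares in both DLKi groups) were searched for a single library far from the rest, measured as its gap to the nearest library over the range of the group, with a critical value of 0.71. Chance gives about 1 in 20 such sets, and 3 were found. Mapk10 in uncrushed DLKi retina had a gap ratio of 0.850: replicate 5 read 11.8 nRPKM and the other 4 lay between 13.3 and 13.5. The same library gave the JIP2 share of the 3 scaffolds in uncrushed DLKi retina a ratio of 0.803, at 30.0% against a highest share of 34.2%. It is the library of that group that is lowest on the second principal component, at -17.0, and lowest in ganglion cell markers, at a mean of 5.56 log2 CPM against 5.77 to 5.99 in the other 4. It was also lowest of its group in amacrine markers (6.13 log2 CPM against 6.30 to 6.35), horizontal cell markers (4.36 against 4.58 to 4.65) and pigment epithelium markers (a summed 95.3 CPM), and its lens markers, a summed 790.4 CPM, were the highest of all 16 libraries. In crushed DLKi retina the JIP2 share had a ratio of 0.776, where replicate 5 had 31.7% and the highest share was 33.1%.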

How the results depend on the processing

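The labels tie no retina to an animal, but neighbouring library numbers give 8 couples of a crushed and an uncrushed retina of 1 drug; this pairing was chosen after seeing the data. Deviations from the group means correlated within couples at 0.0448 to 0.438, over 0.1 in 7 of 8. The highest r, 0.438, was that of the couple formed by the 2 libraries with the lowest totals. Compared only with libraries of the same drug and the other eye, 14 of 16 libraries correlated best with their own couple. This hints at pairing without showing it. With these couples as a block, crush called 1234 genes with vehicle, 2080 with DLKi and 2818 averaged, each time 2 members, Mapk9 and Mapk10 (with vehicle edgeR adjusted p = 0.0248 and 0.00197); the JNK3 share was lower in crushed retina in 8 of 8 couples, -3.03 points, with an adjusted p of 0.0313 in an exact permutation test that flips eyes within couples (unadjusted 0.00781, the smallest it can give). The drug differs only between couples: with their counts summed, the inhibitor averaged over eyes called 47 genes and 0 members (edgeR adjusted p = 0.182 for Map2k7 and 0.195 for Mapk8ip3). The block changed no other call of a member. The falls of Mapk9 and Mapk10 with crush, averaged or with DLKi, were called in every alternative run, and of 1560 recomputed changes of single members 1539 stayed on the same side of the threshold, 12 passed it and 9 lost it. Crush with vehicle called 510 genes, 281 with only the 2 groups compared and 276 to 506 with a library left out; it called 1 member without the 2 lowest totals, 1 without the 3 libraries of the second component, and 0 to 1 with a library left out. The inhibitor called 98 genes in crushed retina (DESeq2 406, the 2 groups alone 45, without the 2 lowest totals 53, leave-one-out 22 to 144) and 122 in uncrushed retina (622, 3 and 11 in the same order, 50 without the 3 libraries, leave-one-out 17 to 205); DESeq2 called 1 member in uncrushed retina. Averaged over eyes it called 1778 genes, 607 without the 2 lowest totals, 1121 without the 3 and 678 to 2541 with a library left out, and 2 members, 4 with DESeq2, 0 without the 2, 0 without the 3 and 0 to 4 with a library left out. The difference of crush effects called 2 genes, 5 with DESeq2, 1 without the 2, 1 without the 3 and 1 to 2 with a library left out. The JNK3 share differed by -3.03 points, -3.44 without the 2, -3.80 without the 3 and -4.21 to -2.27 with a library left out; the JIP2 share by -0.63, -1.37 without the 3 and -1.39 to -0.02 with a library left out. The cause of these shifts was not tested. With 3 vehicle retinas a group, the 95% interval of a member's crush effect extended up to 0.28 on the log2 scale to either side of the estimate (Mapk10).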
